A study of Zea mays subsp. mexicana with 6 samples.

Results

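Protein phosphatase 2C (PP2C) enzymes were followed here through the 7 unigenes that the study of teosinte seedlings under cold and drought named as PP2C, c52482_g3, c52482_g6, c57868_g1, c50507_g1, c60116_g4, c58084_g2 and c62830_g2, out of 184280 unigenes in the deposited table. A unigene is a gene-level contig group of a Trinity assembly made without a genome, and its identifier gives the assembly component (c52482) and the group within it (g3). Members of 1 component share assembled sequence and can divide the reads of 1 gene, so c52482_g3 and c52482_g6 are also given as a sum. The study named these unigenes as responding to stress in the same libraries, or gave primers for them, so a count of responding members is a description and not independent evidence. The study also measured c52482_g3 and c58084_g2 by quantitative PCR in RNA from groups other than those sequenced. Those measurements are not used here.

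The plants were Zea mays ssp. mexicana, cultivar 8493, a wild relative of maize, raised in a growth chamber at 25°C to 13 days after germination. Drought seedlings were treated for 3 h with Hoagland solution holding 20% PEG2000, which lowers the water potential around the roots. Cold seedlings were held at 4°C for 12 h, and control seedlings received neither treatment. Hoagland solution is named for the drought group alone. Each group had 2 libraries, every sample combined at least 3 seedlings, and root, stem and leaf were extracted together. Drought and cold therefore differ in duration as well as in kind, and 1 control group serves both. In such bulk RNA, fewer cells of a type and less RNA per cell cannot be told apart. Expression is given as FPKM, which is fragments per unigene length, scaled to the mapped fragments of the library.

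PP2C enzymes remove phosphate from serine and threonine residues and need magnesium or manganese. In the abscisic acid (ABA) pathway of Arabidopsis, the group A enzymes, among them ABI1, HAB1 and HAI2, hold SnRK2 kinases inactive until an ABA-bound PYR/PYL/RCAR receptor binds and blocks the phosphatase, and transcripts of group A enzymes are induced by ABA. Other groups act elsewhere: group D enzymes of Arabidopsis dephosphorylate the plasma membrane proton pump and are held back by SAUR proteins. The c52482 pair had as its Arabidopsis protein hit PP2C 3, which is HAI2, and as its maize hit LOC100192073, for which RefSeq lists the synonym PP2C14. For c57868_g1 the Arabidopsis hits were PP2C 16 and PP2C 56, which are HAB1 and ABI1, and 1 maize hit was LOC100381549, with the synonym PP2C4. For c62830_g2 the Arabidopsis hit was putative PP2C 63, a group D enzyme, and the maize hit was a probable PP2C 34. The study called c50507_g1 and c60116_g4 PP2C with no further name, and the maize hit of c58084_g2 was a probable PP2C 37.

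The member sequences in the sources used here are the quantitative PCR primers that the study listed for 2 members. Whether a primer pair also matches another unigene of the same component was not tested. They are written 5′ to 3′ in lower case with no base singled out, and each was 20 or 21 bases long.
c52482_g3 forward: tcacgaacggcttcaggtag
c52482_g3 reverse: tgcctgcgtcgttctaatca
c58084_g2 forward: ggacaaggagcgactctaagc
c58084_g2 reverse: cagagacacaggtagccacg

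In drought, all 7 members were higher than in the control, and they were called as differentially expressed genes (DEGs), for which the log2 fold change on the log2(FPKM + 1) scale had to reach 2 in size and the adjusted p had to lie under 0.005. Among the 38768 unigenes tested, 0.725% were called higher in drought. Of the 7 members, 1 (c58084_g2) reached the mean FPKM of at least 1 needed for testing only through its drought libraries. Its drought calls are a description. In cold, 3 members were called higher, c52482_g3, c52482_g6 and c62830_g2, beside 2.16% of all tested unigenes. No member was called lower in either treatment by limma, and 0 members passed that fold downward at an unadjusted p under 0.05, beside 0.0593% of tested unigenes called lower in drought and 1.11% in cold. With the fold left aside, 7 members were higher in drought at an adjusted p under 0.05, beside 5.69% of tested unigenes, and in cold 5 were higher and 1 lower, beside 14.8% and 22.4%. The median log2 fold change of the members was 3.49 in drought and 1.95 in cold, whereas the median of all tested unigenes was 0.01 in drought and -0.18 in cold. Both comparisons use the same control libraries.

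**Figure D1:**
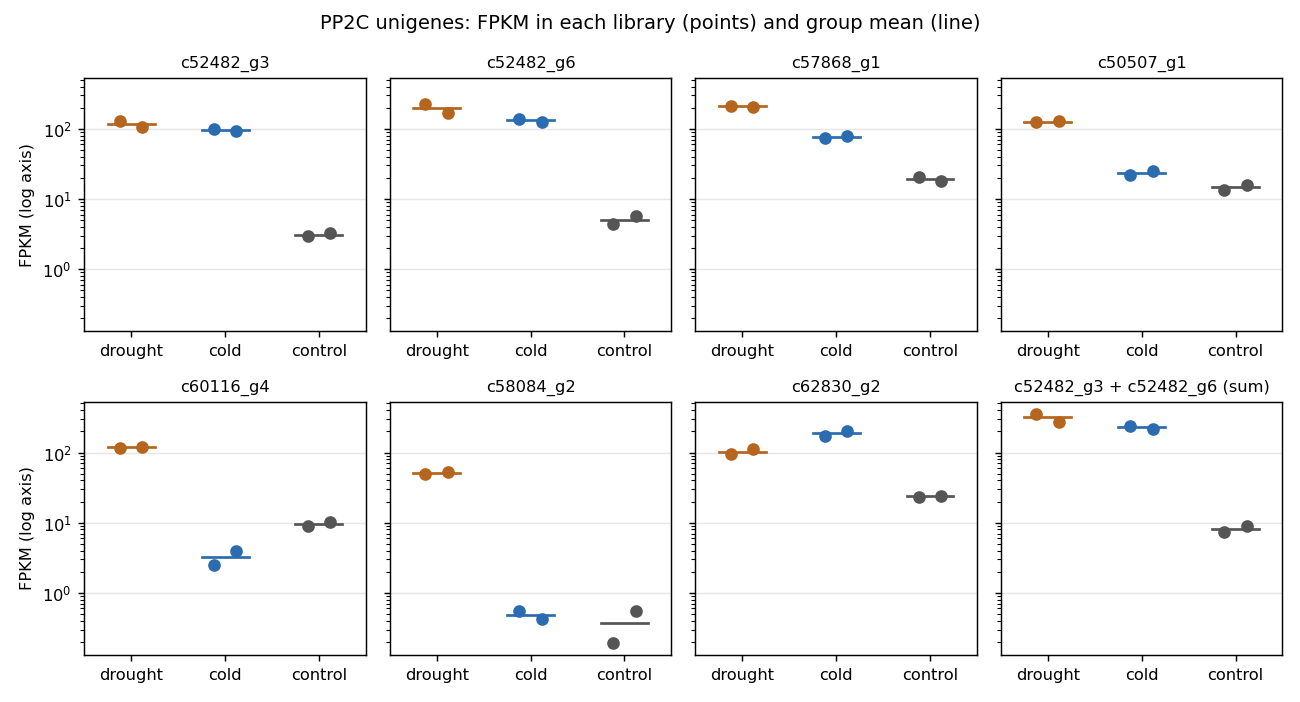
FPKM on a log axis of each PP2C unigene and of the c52482 sum in the drought, cold and control libraries, with points for single libraries and lines for means of 2 libraries. Drought points lie above control points in every panel, c58084_g2 stays under 1 FPKM in cold and control, and c60116_g4 is lowest in cold.

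The calls rest on a fit across all unigenes with limma, with Benjamini-Hochberg adjustment over the 38768 tested. With 2 libraries a group the p-values measure the spread between pools of seedlings, and an exact permutation test of a single unigene could not go below p = 0.333. Without the filter on low unigenes, 0 members met the threshold of 0.005. With 1 library of a comparison left out, the member calls of that comparison were lost as well. With the 4 libraries of each comparison fitted apart, 0 members met it in drought or in cold against the control, and the 3 called in drought against cold still did. Under all 14 alternatives every member called in a comparison with the control kept its direction, and its adjusted p was at most 0.0335.

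The c52482 pair, whose best Arabidopsis hit is a group A enzyme, had low levels in control seedlings and high levels under both stresses. The summed FPKM was 358.4 and 275.1 under drought, 238.4 and 219.4 under cold, and 7.43 and 8.92 without stress (control). Every stressed library was above both controls, and both drought libraries were above both cold libraries. The sum was 38.7-fold higher in drought than in the control by group means, with a log2 fold change of 5.11 (SE 0.162, adjusted p = 0.000315, limma). It was 28.0-fold higher in cold than in the control, with a log2 fold change of 4.65 (SE 0.162, adjusted p = 0.000339, limma). Drought and cold differed in the sum by 0.46 on the log2 scale, with a 95% interval from 0.06 to 0.85 and an adjusted p of 0.072, so the difference did not pass the threshold.

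Taken singly, c52482_g3 had 131.2 and 105.7 FPKM in drought, 100.1 and 94.2 in cold, and 2.99 and 3.22 in the control. Its log2 fold change was 4.86 in drought (adjusted p = 0.000315) and 4.58 in cold (adjusted p = 0.000339, limma). The partner c52482_g6 had 227.2 and 169.4 FPKM in drought, 138.4 and 125.1 in cold, and 4.44 and 5.70 in the control. Its log2 fold change was 5.03 in drought (adjusted p = 0.000328) and 4.46 in cold (adjusted p = 0.000341, limma). In every library c52482_g3 was the smaller part of the sum, with 36.6% and 38.4% in drought, 42.0% and 43.0% in cold, and 40.2% and 36.1% in the control. Both cold libraries had a higher share than the drought and control libraries, which overlapped. Between drought and cold, c52482_g3 differed by 0.28 (95% interval -0.06 to 0.61, adjusted p = 0.161) and c52482_g6 by 0.57 (95% interval 0.13 to 1.02, adjusted p = 0.0526, limma), and neither was called.

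The second member with group A hits, c57868_g1, had 213.9 and 203.2 FPKM in drought, 74.0 and 79.7 FPKM in cold, and 20.3 and 18.1 FPKM in the control. The 3 groups did not overlap, with drought highest and control lowest. It was 10.9-fold higher in drought than in the control, with a log2 fold change of 3.38 (95% interval 3.11 to 3.64, adjusted p = 0.000315, limma). In cold it was 4.01-fold higher by group means, and the log2 fold change of 1.95 (95% interval 1.68 to 2.21, adjusted p = 0.000552, limma) passed the adjusted p but fell short of the fold threshold. Under median-of-ratios scaling, which brings the median cold change of all unigenes to 0.00, the same difference was 2.17 and was called. Drought exceeded cold by 1.43 on the log2 scale (95% interval 1.17 to 1.69, adjusted p = 0.000819, limma), also short of the fold threshold.

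**Figure D2:**
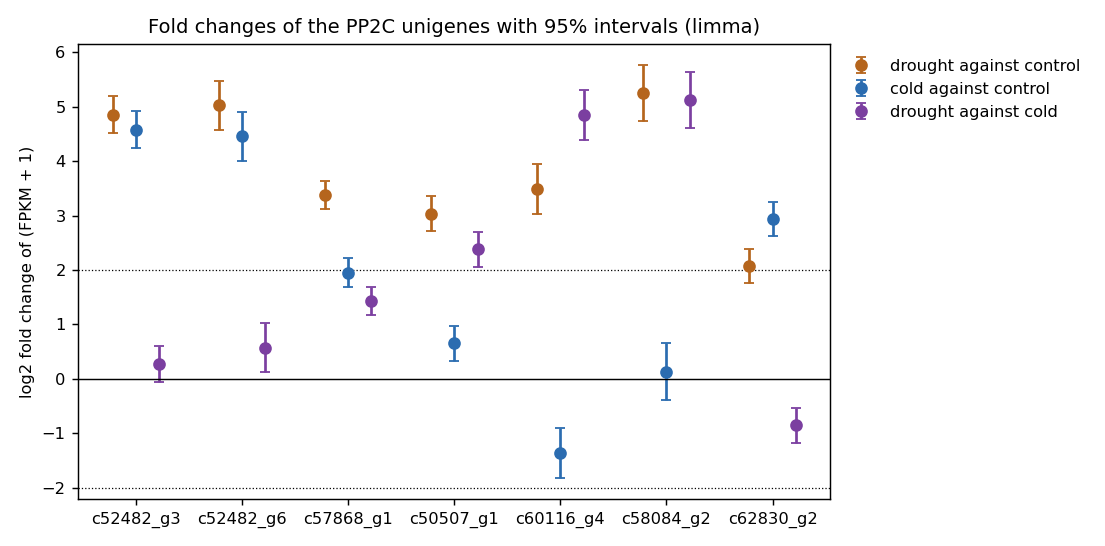
Log2 fold change of (FPKM + 1) for each PP2C unigene in drought against control, cold against control and drought against cold, with 95% intervals from limma and dotted lines at the fold thresholds. All 7 drought points lie above the upper line, whereas the cold points run from -1.36 in c60116_g4 to 4.58 in c52482_g3.

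For 3 members the direct test between drought and cold passed both thresholds. Drought was called above cold for c50507_g1, c60116_g4 and c58084_g2, beside 1.87% of all tested unigenes, and no member was called below cold by limma (0 at an unadjusted p under 0.05 with that fold, beside 1.81% of tested unigenes called lower). The call of c58084_g2 is a description, since this member was tested only because its drought libraries were high. The median log2 difference between drought and cold was 1.43 over the members and 0.19 over all tested unigenes.

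The unigene c50507_g1 had 125.6 and 127.9 FPKM in drought, 21.8 and 25.4 FPKM in cold, and 13.4 and 15.9 FPKM in the control. Its drought libraries stood well apart, while the cold libraries lay just above the controls. The log2 fold change was 3.03 in drought (SE 0.132, adjusted p = 0.000555) and 0.65 in cold (95% interval 0.33 to 0.98, adjusted p = 0.0139, limma), the cold value being no call. Drought exceeded cold by 2.38 (SE 0.132, adjusted p = 0.000417, limma).

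The unigene c60116_g4 was the 1 member with cold libraries below the controls. It had 115.8 and 120.6 FPKM in drought, 2.49 and 3.89 FPKM in cold, and 9.0 and 10.3 FPKM in the control, with no overlap between groups. The log2 fold change was 3.49 in drought (SE 0.188, adjusted p = 0.000793, limma). In cold it was -1.36 (95% interval -1.83 to -0.90, adjusted p = 0.00455, limma), which passed the adjusted p and not the fold threshold. Drought exceeded cold by 4.85 on the log2 scale (SE 0.188, adjusted p = 0.000221, limma), a ratio of 37.1 between the group means.

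The unigene c58084_g2 was near 0 outside drought. It had 49.7 and 52.2 FPKM in drought, 0.55 and 0.43 FPKM in cold, and 0.19 and 0.55 FPKM in the control. Cold and control libraries overlapped, and the cold difference was 0.13 (95% interval -0.38 to 0.65, adjusted p = 0.650, limma), an interval that leaves room for a small change either way. The ratio of group means was 138 in drought against control, and it was 92.6 without the first control library and 268 without the second. The log2 fold change on the log2(FPKM + 1) scale, which understates the change of a unigene near 0, was 5.26, and 6.88 with a pseudocount of 0.1. Drought exceeded cold by 5.12. This member passed the filter on low unigenes, a mean FPKM of at least 1, only through its drought libraries. Its differences in drought are therefore given as a description and not as tests.

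The unigene c62830_g2, with a group D hit, ran the other way and was highest in cold. It had 95.5 and 110.9 FPKM in drought, 172.3 and 203.1 FPKM in cold, and 23.6 and 23.6 FPKM in the control. Its log2 fold change was 2.93 in cold (SE 0.129, adjusted p = 0.000378) and 2.08 in drought (SE 0.129, adjusted p = 0.00125, limma). Drought lay 0.86 below cold on the log2 scale (difference -0.86, 95% interval -1.17 to -0.54, adjusted p = 0.00547, limma), just outside the threshold on p and well inside that on the fold. Its drought call, closest of all members to the fold threshold, became 1.97 without the second drought library.

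Read by library, the 7 members did not overlap with the control in drought, all lying above it, beside 27.8% of tested unigenes. In cold, 5 lay above the control and 1 below, beside 28.1% of tested unigenes above and 43.8% below. Against cold, 6 members lay above in drought and 1 below, beside 43.9% of tested unigenes above and 27.2% below.

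The members also differed in level, and the order changed with treatment. Their FPKM added up to 924.5 ± 48.9 in drought, 520.7 ± 15.7 in cold and 75.7 ± 2.48 in the control (SD, n = 2 each). In drought c57868_g1 (208.6 ± 7.58 FPKM) and c52482_g6 (198.3 ± 40.9 FPKM) were highest and overlapped with each other. They were followed by c50507_g1, c52482_g3 and c60116_g4, at means of 126.8, 118.5 and 118.2 FPKM, of which neighbours overlapped. Then came c62830_g2 at 103.2 ± 10.9 FPKM and c58084_g2 at 50.9 ± 1.73 FPKM. In cold the order ran from c62830_g2 (187.7 ± 21.7 FPKM) over c52482_g6 (131.7 ± 9.35 FPKM), c52482_g3 (97.2 ± 4.12 FPKM) and c57868_g1 (76.8 ± 4.01 FPKM) to c50507_g1 (23.6 ± 2.52 FPKM), c60116_g4 (3.19 ± 0.99 FPKM) and c58084_g2 (0.49 ± 0.085 FPKM), with no overlap between neighbours. In the control c62830_g2 (23.6 ± 0.042 FPKM) and c57868_g1 (19.2 ± 1.54 FPKM) led, and the c52482 pair had 5.07 ± 0.89 FPKM (c52482_g6) and 3.11 ± 0.16 FPKM (c52482_g3). The share of c62830_g2 in the summed FPKM was 9.96% and 12.5% in drought, 33.8% and 38.2% in cold, and 31.9% and 30.5% in the control. The share of the c52482 pair was larger under both stresses, with c52482_g6 alone at 23.7% and 19.0% in drought, 27.1% and 23.5% in cold, and 6.01% and 7.36% in the control.

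**Figure D3:**
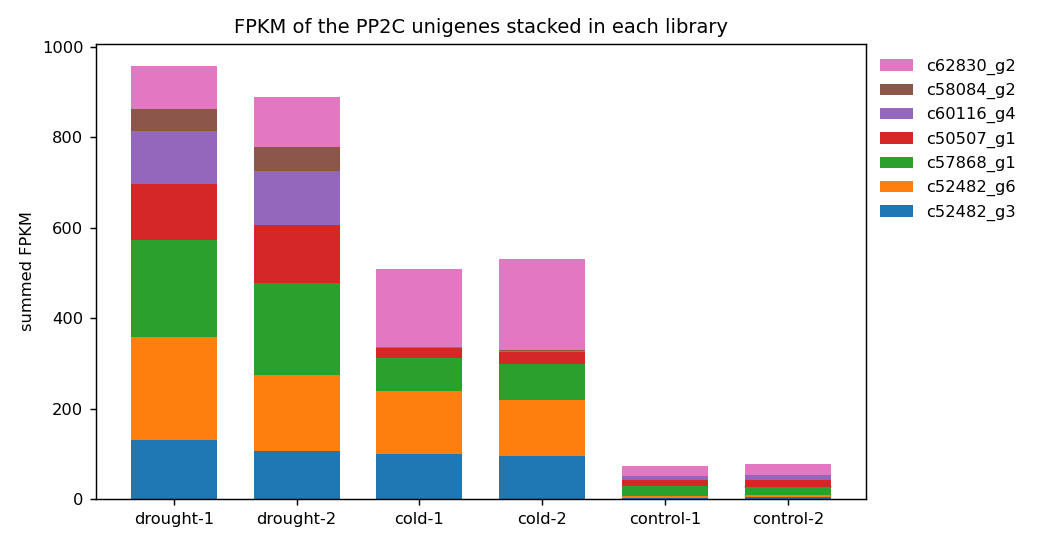
FPKM of the 7 PP2C unigenes stacked in each drought, cold and control library, with the bar height giving their sum. The sum averaged 924.5 in drought, 520.7 in cold and 75.7 in the control, and c62830_g2 forms the largest block in cold.

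The 6 Trinity components of the members hold 25 unigenes, of which 18 are not members and 15 of these passed the filter. Of the 15, 1 was called higher in drought, 2 in cold, and 4 in drought against cold, beside 0.725%, 2.16% and 1.87% of all tested unigenes. Since 6 of the 15 passed the filter only through their drought libraries, these counts describe the components and are not support for a drought response. None was called lower by limma, and 1 passed that fold downward at an unadjusted p under 0.05 (c62830_g3 in drought against cold, difference -2.25, adjusted p = 0.0519). The components of c57868_g1 and c50507_g1 hold no other unigene, so their values cannot have been divided within a component.

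In component c52482, the 4 other unigenes had at most 0.24 FPKM in cold and between 2.99 and 9.73 FPKM in drought. They added little in drought and cold and made up a larger part in the control. The whole component had 380.8 and 290.9 FPKM in drought, 238.8 and 219.8 FPKM in cold, and 10.1 and 11.9 FPKM in the control. In the control the pair alone had 7.43 and 8.92 FPKM. Under both stresses the whole component therefore rose by a smaller factor than the pair. All 4, c52482_g1, c52482_g2, c52482_g4 and c52482_g5, passed the filter only through drought, so their differences are not given as tests.

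In component c58084, c58084_g1 followed the member c58084_g2, with 32.9 and 34.9 FPKM in drought, 0.55 and 0.29 FPKM in cold, and 0.10 and 0.26 FPKM in the control. It passed the filter only through its drought libraries, and its log2 fold change of 4.89 in drought is given as a description. The 2 together reached 82.6 and 87.0 FPKM in drought, 1.1 and 0.72 FPKM in cold, and 0.29 and 0.81 FPKM in the control. The unigene c58084_g4, at 5.74 and 2.44 FPKM in drought, was listed at 0 in all cold and control libraries. The remaining unigenes had another pattern: c58084_g3 had 22.9 and 26.8 FPKM in drought, 33.9 and 32.2 FPKM in cold, and 19.2 and 19.4 FPKM in the control, and c58084_g5 was lowest in cold at 3.06 and 2.29 FPKM.

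In component c60116, c60116_g3 resembled the member c60116_g4, with 53.8 and 43.7 FPKM in drought, 1.51 and 2.89 FPKM in cold, and 2.80 and 5.87 FPKM in the control. Its drought log2 fold change of 3.28 had an adjusted p of 0.00607 by limma and was no call, and its call of drought above cold had a difference of 3.99 (adjusted p = 0.00124). The Arabidopsis hit of c60116_g1 is a RELA/SPOT homolog, an enzyme of guanosine tetraphosphate metabolism, so this component joins unigenes with unlike annotations. That unigene had 51.4 and 32.1 FPKM in drought, 11.02 and 15.89 FPKM in cold, and 12.5 and 13.7 FPKM in the control.

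In component c62830, c62830_g5 and c62830_g6 share the hits of the member c62830_g2, PP2C 63 and PP2C 34. The unigene c62830_g6 had 18.3 and 13.7 FPKM in drought, 64.1 and 66.8 FPKM in cold, and 6.40 and 4.33 FPKM in the control. Both were called higher in cold, with log2 fold changes of 2.83 for c62830_g5 (adjusted p = 0.000552) and 3.40 for c62830_g6 (adjusted p = 0.000661, limma), and neither was called in drought. Summed with the member, these unigenes had 127.3 and 135.2 FPKM in drought, 273.2 and 309.4 FPKM in cold, and 34.7 and 32.2 FPKM in the control, so cold was also the highest group in this sum.

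**Figure D4:**
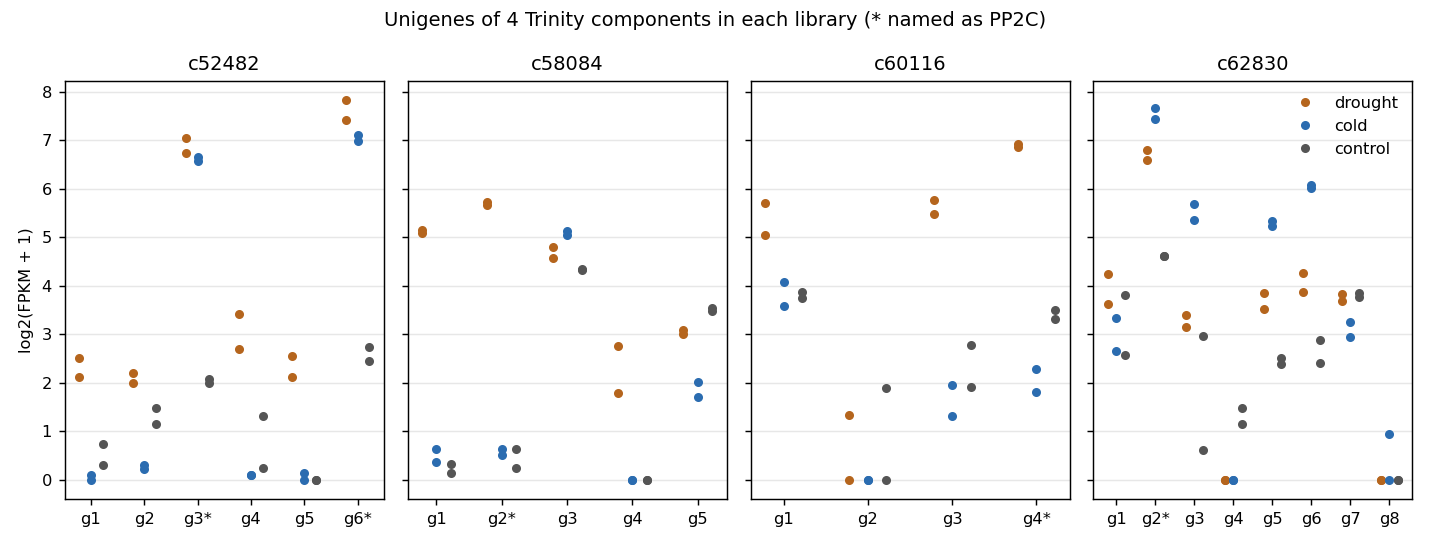
Log2(FPKM + 1) of the unigenes in the 4 Trinity components that hold more than 1 unigene, in drought, cold and control libraries, with asterisks at the named PP2C unigenes. In c58084 the points of g1 and g2 are high in drought alone, and in c62830 those of g2, g5 and g6 are highest in cold.

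The study's list of cold-responding unigenes, as far as it was read here, gave 6 further PP2C unigenes, chosen on these libraries. Of these, 5 passed the filter, c62830_g5 and c62830_g6 among them. All 5 were called higher in cold, as their selection implies, and 1 was called higher in drought. That 1, c53423_g1, had 18.1 and 18.1 FPKM in drought, 21.9 and 19.7 FPKM in cold, and 3.19 and 3.09 FPKM in the control, with a drought log2 fold change of 2.21 (adjusted p = 0.00112, limma). In contrast, c50480_g1, with an Arabidopsis hit to PP2C 68, had 0.38 and 0.30 FPKM in drought, 20.1 and 15.0 FPKM in cold, and 0.25 and 0.47 FPKM in the control. It passed the filter only through its cold libraries. Its cold call, counted among the 5, and its difference of -3.78 between drought and cold are therefore descriptions. The unigene c60124_g1, which shares the hits of c62830_g2, had 4.88 and 4.11 FPKM in drought, 36.96 and 19.16 FPKM in cold, and 1.70 and 0.70 FPKM in the control. The sixth, c47032_g1, did not pass the filter and had 3.01 and 0.87 FPKM in cold.

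Beside the PP2C members, a list of 19 ABA pathway unigenes was taken from the study's text and tables, so it is no independent evidence, and 18 of them were tested. Of these, 8 were called higher in drought and 6 in cold, beside 0.725% and 2.16% of all tested unigenes, and none was called lower by limma (0 at an unadjusted p under 0.05 with that fold). In drought against cold 7 were called higher and 2 lower, beside 1.87% and 1.81%. Of the 18, 5 passed the filter only through drought: c56077_g1, c60754_g2 and the EID1-like F-box unigenes c57232_g1, c57232_g2 and c57232_g3.

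Of 3 tested ABA synthesis unigenes, 2 were called higher under both stresses. NCED1 (c63716_g5), which encodes a 9-cis-epoxycarotenoid dioxygenase that cleaves the carotenoid precursor of ABA, had 48.9 and 50.9 FPKM in drought, 26.5 and 29.9 FPKM in cold, and 1.58 and 1.07 FPKM in the control. Its log2 fold change was 4.46 in drought (adjusted p = 0.000315) and 3.66 in cold (adjusted p = 0.000365, limma). A unigene of viviparous-14 (c62039_g8), the maize enzyme of the same step, had log2 fold changes of 4.70 in drought and 2.54 in cold, both called, and another (c56077_g1) had 2.32 and 1.38 and was not called.

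ABA 8′-hydroxylases, which begin the breakdown of ABA, were called in cold and not in drought. The unigene c63882_g2 had 38.0 and 31.5 FPKM in drought, 168.4 and 202.8 FPKM in cold, and 9.23 and 11.4 FPKM in the control. In drought the log2 fold change was 1.66 for c63882_g2 (adjusted p = 0.00504) and 1.54 for c63882_g1 (adjusted p = 0.00418, limma). Both unigenes fell short of the fold threshold, although their drought libraries lay above the controls. Drought was called lower than cold for c63882_g2 (difference -2.38, adjusted p = 0.000677) and for c63882_g1 (difference -2.21, adjusted p = 0.000579, limma), the same order of the 2 stresses as in c62830_g2.

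SnRK2 kinases are the substrates of group A PP2C enzymes. The SRK2C unigene c50704_g4 had 34.6 and 28.6 FPKM in drought, 29.8 and 27.6 FPKM in cold, and 27.0 and 29.4 FPKM in the control, and the groups overlapped. Its log2 difference was 0.15 in drought (95% interval -0.17 to 0.48) and 0.03 in cold (95% interval -0.30 to 0.35). The SnRK1 kinase unigene of the list, c57228_g1, had 1.79 and 2.40 FPKM in drought, 0.48 and 0.35 FPKM in cold, and 3.43 and 3.08 FPKM in the control. Its log2 difference was -0.47 in drought (95% interval -1.08 to 0.15) and -1.59 in cold (adjusted p = 0.00656, limma), and neither was a call.

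The drought pattern of c58084_g2, low in cold and high in drought, was also seen in response genes of the list. ATHB-6 (c60754_g2), a homeodomain factor whose Arabidopsis counterpart binds ABI1, had 55.3 and 59.3 FPKM in drought, 0.22 and 0.17 FPKM in cold, and 1.21 and 0.86 FPKM in the control. The dehydrin DHN1 (c43682_g1), a hydrophilic protein of drying tissue, had 2588 and 2134 FPKM in drought, 28.2 and 17.2 FPKM in cold, and 11.4 and 17.6 FPKM in the control. The drought log2 fold change of c43682_g1 was 7.27 (adjusted p = 0.000415, limma), and it was not called in cold. For c60754_g2, which passed the filter through drought alone, the value of 4.85 is a description. In contrast, the dehydrin COR410 (c57549_g1) was called in both, with log2 fold changes of 4.62 in drought and 2.20 in cold.

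**Figure D5:**
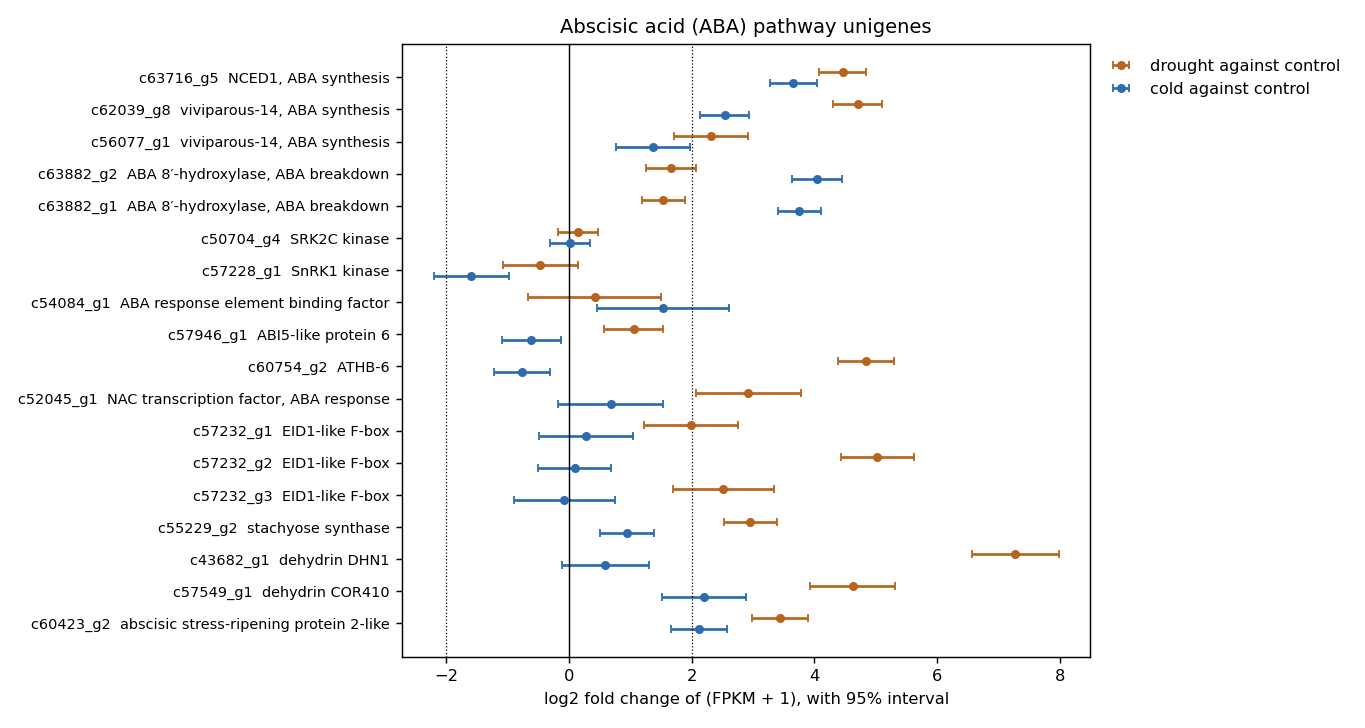
Log2 fold change of (FPKM + 1) with 95% intervals for the 18 tested ABA pathway unigenes, in drought and in cold against control, with dotted lines at the fold thresholds. NCED1 lies past the upper line in both treatments, ABA 8′-hydroxylases in cold, and DHN1 and ATHB-6 in drought.

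The 3 unigenes most like the c52482 sum over the 6 libraries, among 14944 with a mean FPKM of at least 10, were c55639_g1, c58055_g7 and c50354_g1, with Pearson r of 0.9993, 0.9988 and 0.9979 on the log2(FPKM + 1) scale. With 6 libraries in 3 groups this likeness is a description. The first, whose maize hit is uncharacterized, had 413.6 and 306.8 FPKM in drought, 269.4 and 267.7 FPKM in cold, and 23.8 and 28.7 FPKM in the control.

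Facts of the whole table that touch these values are few. Replicate libraries correlated at r of 0.951 in drought, 0.950 in cold and 0.956 in the control on the log2(FPKM + 1) scale over the tested unigenes. The summed FPKM of 10 leaf marker unigenes was 8611 and 8704 in drought, 13849 and 16966 in cold, and 13670 and 12942 in the control, with 9 of 10 below the control in drought, beside 24.6% of tested unigenes, and 5 lower at an adjusted p under 0.05 by limma, beside 2.83%, none of them a DEG. The summed FPKM of 8 root marker unigenes was 32.2 and 56.6 in drought, 47.4 and 84.5 in cold, and 33.1 and 70.5 in the control. That sum came mainly from a nitrate transporter, 3 of the 8 were at 0 in some library, and the root cap unigenes were at 2.08 FPKM or less in all libraries. Leaf markers moved with drought, and their part in the PP2C values was not tested.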

How the data were processed

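The authors made 1 Trinity assembly from the reads of every sample, mapped read pairs to the assembly with Bowtie 1.1.1, estimated reads per unigene with RSEM and deposited FPKM values with 2 decimals for 184280 unigenes in 6 libraries. No counts were used here, so count models were not run. Low FPKM values give an estimate of the mapped fragments behind each library's FPKM scale, which are not its clean reads (by the study's supplement, clean reads order the libraries differently). Relative to the second control library the estimate was 0.875 (control), 0.959 and 0.925 (cold) and 0.968 (drought), and the second drought library gave no single value, with maxima at 0.831 and 0.883.

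FPKM plus a pseudocount of 1 was log2 transformed, and unigenes whose mean FPKM reached 1 (38768 in all) were fitted in limma 3.58.1 (R 4.3.3) with 6 libraries in 1 fit and a trended empirical Bayes variance (3 residual and 2.86 prior degrees of freedom). P was adjusted after Benjamini and Hochberg over all tested unigenes in each of 3 comparisons. The c52482 sum replaced its 2 unigenes in a fit of its own. The script was tested on simulated data. Figures used Python 3.11.15 and matplotlib 3.10.9. Names were matched to RefSeq by locus.

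Genes eligible to be named were all members, the unigenes of the lists, the tested unigenes of the members' components and the 3 unigenes most like the c52482 sum. All members are given in full, and of the others those that a result turns on. The members and the lists were chosen with earlier results of these data known. Thresholds are those of the study's results. Alternatives were a pseudocount of 0.1, other filters, median-of-ratios scaling, quantile normalization, separate fits, a replicate block, no variance trend, other thresholds and leaving out each library.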

Additional observations from a re-analysis of the deposited data

How the results depend on the processing

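Every alternative kept the direction of each called member, and all calls that were lost stayed at an adjusted p of at most 0.0335 by limma. Without a filter on low FPKM, 0 members were called in the 3 comparisons (7, 3 and 3 past the fold at an unadjusted p under 0.05 in drought, cold and drought against cold), and the c52482 sum was 5.106 in drought (adjusted p = 0.00711) and 4.651 in cold (adjusted p = 0.00785). In separate fits of 4 libraries, 0 members were called in drought and in cold (7 and 3 at an unadjusted p under 0.05), with the c52482 sum at 5.106 (adjusted p = 0.00938) and 4.651 (adjusted p = 0.00552). With 1 library of a comparison left out, the member calls of that comparison were lost. The c52482 sum then ranged from 4.916 to 5.297 in drought and from 4.533 to 4.768 in cold. A fold threshold of 1 added c57868_g1 as higher (4 members in cold and 4 in drought against cold, against 3 in each) and 1 member lower in cold, c60116_g4. In cold, c58084_g2 was -0.05813 without the first control library and 0.3232 without the second, against 0.13 with both. The drought calls of c60116_g4 (adjusted p = 0.0058) and c62830_g2 (adjusted p = 0.00716) were lost when the filter asked for 1 FPKM in at least 2 libraries, and that of c62830_g2 (adjusted p = 0.00807) with no variance trend.

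By their correlation over the tested unigenes, replicate differences did not pair the libraries, with r of -0.0322 (cold and control), -0.0113 (drought and control) and 0.0392 (drought and cold), although the root marker sum was higher in the second library of all 3 groups. A replicate block changed no call of a member, and over all unigenes it gave 158 higher and 9 lower in drought, against 281 and 23, and 521 higher in cold, against 838. Median-of-ratios scaling gave 1075 higher and 299 lower in cold, against 838 and 432, and 529 and 942 in drought against cold, against 726 and 701. Over all unigenes, 0 were called against the control without the filter or in separate fits. With 1 library of a comparison left out, the calls of that comparison were lost as well. FPKM carries no read numbers, so counting error could not be given, and values under 1 FPKM rest on few reads.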

Other observations

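PP2C unigenes that the study did not name as stress responding were picked by protein hit alone from a shortened annotation, which gave 4. Further PP2C unigenes of the assembly can be missing from this list. Of the 4, 2 passed the filter and neither was a DEG. Since the study's naming used these same libraries, this result is a description. The PP2C 8 hit c53335_g5 had 23.2 and 25.1 FPKM in drought, 11.6 and 10.7 FPKM in cold, and 28.5 and 25.4 FPKM in the control, with a cold difference of -1.20 on the log2 scale (adjusted p = 0.00214, limma). The PP2C 26 hit c47210_g1, whose Arabidopsis counterpart dephosphorylates photosystem II core proteins, had 97.0 and 118.4 FPKM in drought, 78.4 and 96.1 FPKM in cold, and 95.4 and 83.3 FPKM in the control.

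The same shortened annotation gave 18 unigenes of other phosphatase families, a partial list that cannot stand for those families. Of the 18, 6 passed the filter, and limma called 0 in drought and 0 in cold, with median log2 fold changes of 0.14 and 0.02. At an unadjusted p under 0.05 with the fold of a DEG the counts were also 0. A dual-specificity phosphatase, c57342_g1, had 23.6 and 21.2 FPKM in drought, 13.5 and 14.9 FPKM in cold, and 14.0 and 14.2 FPKM in the control, with a drought difference of 0.63 (adjusted p = 0.0349, limma).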
